A study of Mus musculus with 104 samples.

Results

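The haemoglobin genes Hba-a1, Hba-a2, Hbb-bs and Hbb-bt and the erythroid gene Alas2 were followed across every library of a mouse brain series. They are 5 of 24060 genes in the deposited RefSeq counts and 5 of 48795 genes with an Ensembl FPKM value, and they were taken by symbol. Stranded RNA-seq libraries were made from the cortex of mice aged 6 months, 1 library a mouse, 52 females and 52 males. The mice carry the genotype label wild type on a C57BL/6 background and belong to 13 lines of 4 females and 4 males, named Zswim6, Tbc1d8, Rgs9, Rasgef1a, Ppp1ca, Pcdh20, Morf4l1, Kdm3b, Hrk, Gsg1l, Ece2, Dach1 and Arpp19. All groups share genotype, background and age, and no mutant is among them. The label that names the line is tagged as a batch, so line and batch cannot be told apart. Of the libraries, 8 from 6 lines were on plate 2 and 96 on plate 1. The labels used here do not say whether blood was flushed from the brain before dissection.

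Haemoglobin carries oxygen in red blood cells and is built of alpha-type and beta-type chains, each holding a haem group. In adult C57BL/6 mice the alpha chains come from the paired genes Hba-a1 and Hba-a2, and the beta chains from the paired genes Hbb-bs and Hbb-bt of the Hbb single haplotype. Alas2 encodes the erythroid form of 5-aminolevulinate synthase, which makes the first committed step of haem synthesis in developing red cells, while its paralog Alas1 serves other tissues. Young red cells that have left the marrow still hold globin and Alas2 mRNA, and globin mRNA has also been described in neurons and glia of rodent brain. In RNA from whole cortex, fewer cells of a type and less RNA per cell cannot be told apart.

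All coordinates are on GRCm38, from the GENCODE vM21 annotation. Hba-a1 (ENSMUSG00000069919) lies at chr11:32283511-32284465 and Hba-a2 (ENSMUSG00000069917) at chr11:32296489-32297298, both on the plus strand. Hbb-bs (ENSMUSG00000052305) lies at chr7:103826534-103828096 and Hbb-bt (ENSMUSG00000073940) at chr7:103812524-103813996, both on the minus strand. Alas2 (ENSMUSG00000025270) lies at chrX:150547375-150570638 on the plus strand. The main transcript of each globin gene has 3 exons, and that of Alas2 has 11. The coding sequences are 426 bases long in both alpha genes, 441 bases in both beta genes and 1761 bases in Alas2.

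Within each pair the coding sequences differ at 1 base, which bears on how reads can be assigned to one gene or the other. The alpha pair differs by C381T and the beta pair by C417T, given as the base of the first gene, the position counted from 1 at the start of the coding sequence, and the base of the second gene. The 30 bases around each difference are shown with the differing base in capitals.
Hba-a1: gcatgcctctctggaCaaattccttgcctc
Hba-a2: gcatgcctctctggaTaaattccttgcctc
Hbb-bs: ggtggctggagtggcCgctgccctggctca
Hbb-bt: ggtggctggagtggcTgctgccctggctca

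Of the 50-base windows of the Hba-a1 transcript, 67.5% occur letter for letter in Hba-a2, and 86.9% of those of Hba-a2 occur in Hba-a1. Of those of Hbb-bs, 65.8% occur in Hbb-bt, and 58.3% of those of Hbb-bt occur in Hbb-bs. With 100-base windows the shares are 56.5% and 74.5% for the alpha pair and 62.6% and 54.8% for the beta pair. How the authors treated reads that match both genes of a pair is not given in the sources used here. The split within a pair is therefore uncertain. If such reads were left out, the levels and the alpha to beta ratio would be affected too. The 50-base windows that its partner lacks number 211 in Hba-a1, 66 in Hba-a2, 198 in Hbb-bs and 273 in Hbb-bt.

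The 250 bases before each start site are shown next. The 5 genes rose and fell together between mice, as described further on, and any part of these bases in that was not tested. The sequences are RefSeq's on GRCm38.p6, written in the direction of transcription, with the motifs described after them in capitals, on either strand. The Hba-a1 window is identical to that of Hba-a2 at 247 of 250 bases (98.8%) and is not shown, while those of the beta pair are identical at 178 of 250 (71.2%). Start sites differ between annotations: 3 bases of the Hba-a2 window, 168 of the Hbb-bs window, 73 of the Hbb-bt window and 42 of the Alas2 window lie inside the GENCODE gene.
Hba-a2, chr11:32296242-32296491, plus strand: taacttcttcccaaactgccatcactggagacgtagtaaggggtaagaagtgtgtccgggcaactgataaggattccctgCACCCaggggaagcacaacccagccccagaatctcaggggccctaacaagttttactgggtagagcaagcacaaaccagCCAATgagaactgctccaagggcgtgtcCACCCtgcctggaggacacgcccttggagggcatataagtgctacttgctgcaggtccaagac
Hbb-bs, chr7:103827929-103828178, minus strand: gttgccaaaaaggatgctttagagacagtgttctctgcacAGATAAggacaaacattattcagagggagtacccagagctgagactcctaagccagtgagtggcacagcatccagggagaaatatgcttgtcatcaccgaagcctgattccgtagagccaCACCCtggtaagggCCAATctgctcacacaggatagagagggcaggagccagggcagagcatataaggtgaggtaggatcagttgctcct
Hbb-bt, chr7:103813924-103814173, minus strand: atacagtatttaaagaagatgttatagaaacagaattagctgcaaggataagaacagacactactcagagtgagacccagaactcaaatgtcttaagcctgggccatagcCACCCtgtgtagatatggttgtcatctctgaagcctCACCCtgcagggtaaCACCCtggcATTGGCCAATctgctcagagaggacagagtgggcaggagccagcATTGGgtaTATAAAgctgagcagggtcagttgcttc
Alas2, chrX:150547167-150547416, plus strand: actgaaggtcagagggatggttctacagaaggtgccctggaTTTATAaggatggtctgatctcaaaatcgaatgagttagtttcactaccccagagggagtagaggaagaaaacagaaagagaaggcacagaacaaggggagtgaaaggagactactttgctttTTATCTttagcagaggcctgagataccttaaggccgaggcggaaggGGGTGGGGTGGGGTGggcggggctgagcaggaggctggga

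CCAAT, a box often found upstream of globin genes, occurred in the windows of the 4 globin genes, against 33.9% of 32851 promoters of the same length. CACCC, the core of the box bound by Klf1 and related factors, occurred in all 5 windows, against 52% of promoters. AGATAA, a form of the GATA core, occurred in 2 windows, those of Hbb-bs and Alas2, against 9.99% of promoters. Other forms, such as the TGATAA in the Hba-a2 window, were not searched. TATAAA occurred in 2 windows, at -28 on the same strand in that of Hbb-bt and at -209 on the opposite strand in that of Alas2, against 12.4% of promoters. The variant CATAAA was searched too and occurred in 0 of the 5 windows, against 10.8% of promoters. Further variants, such as the CATATAAG in the Hba-a2 and Hbb-bs windows, were not searched. Both strands were searched, and in the Hbb-bt window a CCAAT on the opposite strand abuts one on the same strand. These are matches of letters and not measured binding.

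Depth in the RefSeq counts was 28.4 M reads in the median library, 3.39 M at the lowest and 33.5 M at the highest. The shallowest library, Kdm3b female replicate 22, stood apart from the next at 23.9 M reads. In Rasgef1a male replicate 40 and Rgs9 female replicate 43, both Xist and Y-linked reads went against the sex label. In Rasgef1a female replicate 39 Xist did, with 2 reads, while its 0 Y-linked reads did not. All of these libraries were kept under their labels unless said otherwise. No 2 libraries held identical counts. Nothing in the labels says that mice of a line were unrelated, so p-values measure the spread between these animals.

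In the RefSeq counts the globin genes were nearly without reads. Over all libraries Hbb-bs and Hbb-bt held 0 reads, Hba-a1 held 1 and Hba-a2 held 12, spread over 8 libraries. The RefSeq rows Hbb-b1 and Hbb-b2, symbols of the beta genes of another haplotype, held 26 reads and 0 reads. Alas2 was counted there as elsewhere, with 2629 reads in all and 7 to 55 per library (median 25). Globin reads were present in the Ensembl values of the same libraries, where a median library held 412.5 reads of Hbb-bs and 125 of Hba-a1. Of 13518 symbols with at least 20 Ensembl reads on average, 39 (0.288%) held under 1% of those reads in RefSeq, all 4 globin genes among them, and the median symbol held 99.2%. Why these symbols hold few RefSeq reads was not tested. The globin genes are therefore given from the Ensembl values, as FPKM (reads scaled to gene length and library size) and as whole reads recovered from the FPKM. This choice was made after the counts were seen.

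Hbb-bs had the highest level per length of the 5 genes in every library. Its level was lowest at 7.14 FPKM in Dach1 female replicate 7, had a median of 17.3 FPKM and was highest at 28.6 FPKM in Zswim6 female replicate 52 (mean 17 ± 3.96, SD over all libraries). Hba-a1 ranged from 2.35 FPKM in Ppp1ca female replicate 33 to 7.76 FPKM in Arpp19 female replicate 4, with a median of 4.83 FPKM (mean 4.86 ± 1.32). Both genes were thus measured in every mouse, with a span of 4.00-fold for Hbb-bs and 3.30-fold for Hba-a1 between the extremes.

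Hbb-bt, the other beta chain gene, ranged from 0.931 FPKM in Rgs9 male replicate 43 to 4.92 FPKM in Arpp19 female replicate 4, with a median of 2.42 FPKM (mean 2.45 ± 0.801). Hba-a2 ranged from 0.739 FPKM in Dach1 female replicate 7 to 4.48 FPKM in Rasgef1a female replicate 39, with a median of 2.25 FPKM (mean 2.30 ± 0.752). Alas2 ranged from 0.0793 FPKM in Zswim6 female replicate 50 to 0.776 FPKM in Kdm3b female replicate 22, with a median of 0.327 FPKM (mean 0.336 ± 0.145). The highest Alas2 level came from 7 reads in the shallowest library, and without it the maximum was 0.696 FPKM. The reads behind these levels are few: the median library held 54 reads of Hbb-bt, 46.5 of Hba-a2 and 25 of Alas2. The reads of the 4 globin genes together came to 20.5 CPM (counts scaled to library size).

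**Figure D1:**
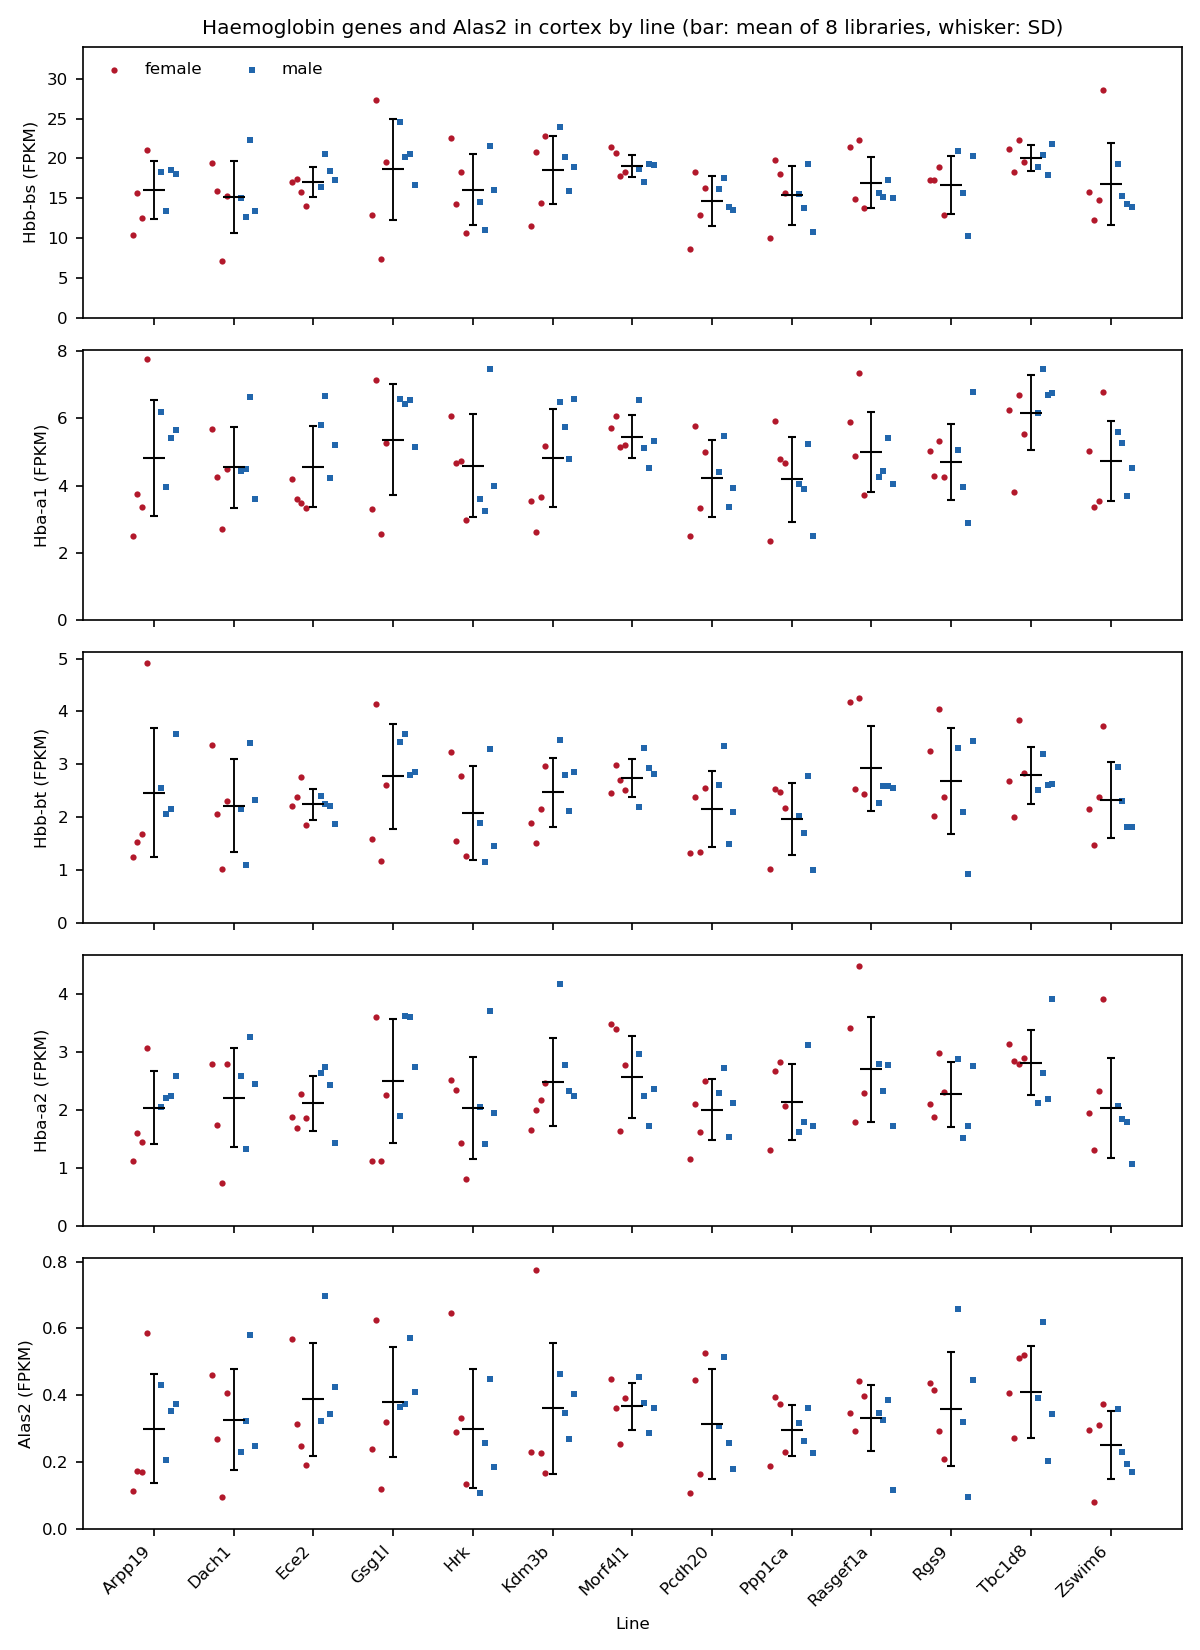
Level of each gene in FPKM (y axes, from 0) in every library by line (x axis), females as circles left of males as squares, with the mean and SD of the 8 libraries of a line. Hbb-bs runs from 7.14 to 28.6 FPKM, and libraries of every line overlap with those of every other line.

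The order of the levels per length was the same in every library but for Hbb-bt and Hba-a2. Hbb-bs was above Hba-a1 in every library, with a median ratio of FPKM of 3.49, and Hba-a1 was above Hbb-bt in every library, by 1.96-fold. Hbb-bt and Hba-a2 did not differ beyond their spread: Hbb-bt was the higher one in 60 libraries, and in 10 of 13 line means, by a median of 1.05-fold with an SD of 0.35 on the log2 scale. Hba-a2 was above Alas2 in every library, by 7.06-fold.

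Several genes that define red cells or their precursors were near 0 beside the globins, and others were not. The mean level was 0.00849 FPKM for Slc4a1 (at most 0.0455 in any library), the anion exchanger of the red cell membrane. Gata1 and Klf1, the transcription factors that drive the erythroid programme, had means of 0.00109 FPKM (at most 0.0399) and 0.0480 FPKM (at most 0.133). Of the red cell membrane list, 7 of 16 genes were too low to be tested, Slc4a1 among them. Of the transcription factor list, 4 of 8 were too low (Gata1, Gfi1b, Klf1 and Nfe2). The embryonic globin genes were near 0 as well, with 72 reads of Hbb-y, 3 of Hba-x, 1 of Hbb-bh1 and 0 of Hbb-bh2 over all libraries, where a count of 0 allows up to 3 reads. The other 9 membrane genes and the other 4 genes of the transcription factor list, which also holds the receptor gene Epor, were tested. Several were above the 0.336 FPKM of Alas2, with means of 0.421 FPKM for Gypc, 3.58 FPKM for Epor and 4.58 FPKM for Lmo2.

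The ratios of the chains were taken from reads of the same library, with 0.5 reads added to each sum. Hba-a1 had 2.55 times the reads of Hba-a2 in the median library, with a range from 1.55 to 5.04. Hbb-bs had 7.57 times the reads of Hbb-bt, with a range from 4.68 to 13.4. The alpha genes together had 0.373 times the reads of the beta genes, with a range from 0.209 to 0.458. On the FPKM scale, which divides by gene length, the median ratios were 2.11, 6.98 and 0.371. Over all libraries Hbb-bs alone gave 64.3% of the globin reads and the alpha pair 27.1%. As counted, beta reads outnumbered alpha reads in every library, with the treatment of reads shared by a pair not known here.

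The ratio of alpha to beta reads varied least between mice and that of Alas2 to globin reads most. The SD of the log2 ratio was 0.18 for alpha to beta, where reads drawn at random would give 0.14. It was 0.28 for Hbb-bs to Hbb-bt, against 0.23 from counting alone, and 0.34 for Hba-a1 to Hba-a2, against 0.27. For Alas2 to the 4 globins it was 0.46, against 0.33, around a median of 0.0394 reads of Alas2 per globin read. The spread of each ratio was thus above counting error by a modest amount, and the counting values cover counting error only, since the reads carry no molecular identifiers. The lowest Hba-a1 to Hba-a2 ratio (1.55), the lowest alpha to beta ratio (0.209), the highest Hbb-bs to Hbb-bt ratio (13.4) and the highest Alas2 to globin ratio (0.0968) were all from the shallowest library. Without it the ranges were 1.63 to 5.04, 0.270 to 0.458, 4.68 to 12.3 and 0.0145 to 0.0713.

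**Figure D2:**
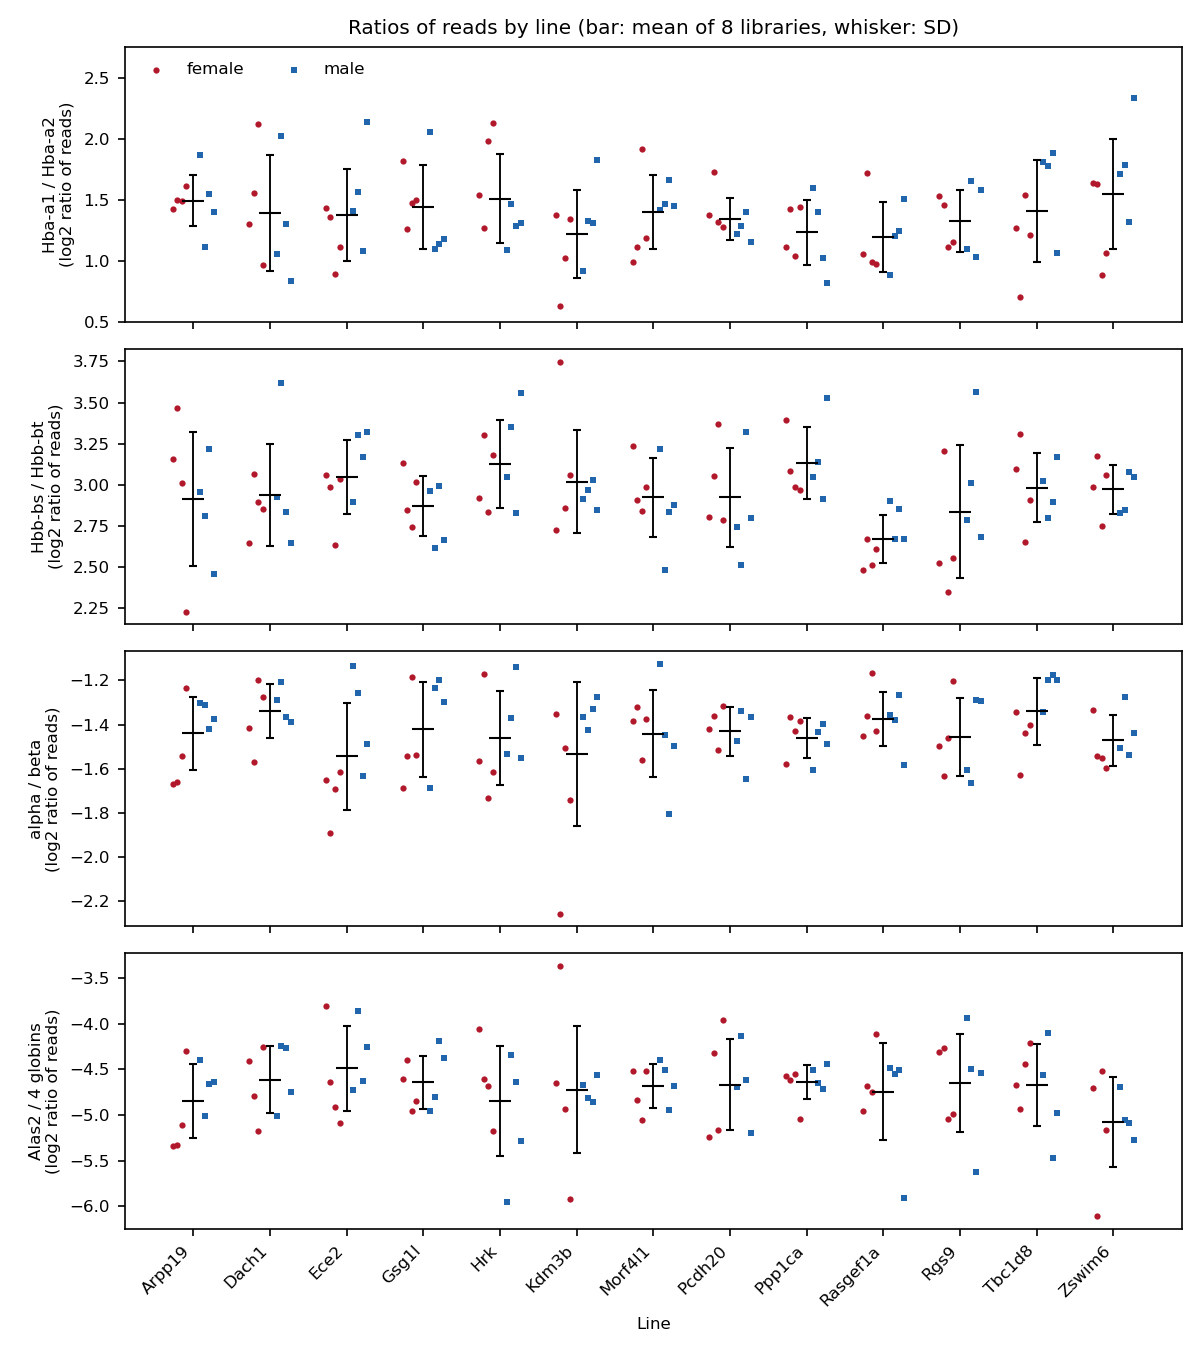
Log2 ratios of reads (y axes) by line (x axis) in every library, females as circles left of males as squares, with mean and SD of 8 libraries. The alpha to beta ratio has the narrowest spread (SD 0.18), and its lowest point is Kdm3b female replicate 22, the shallowest library.

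The line means of the ratios lay close together. For Hba-a1 to Hba-a2 they ran from 2.29 in Rasgef1a to 2.92 in Zswim6, as geometric means of 8 libraries. For Hbb-bs to Hbb-bt they ran from 6.37 in Rasgef1a to 8.77 in Ppp1ca. For alpha to beta they ran from 0.343 in Ece2 to 0.395 in Dach1, and for Alas2 to globin from 0.0296 in Zswim6 to 0.0445 in Ece2. In 100000 permutations of line within sex none of the 4 ratios differed between lines (adjusted p from 0.403 to 0.793, Benjamini-Hochberg over 8 tests).

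Between the sexes the ratio of alpha to beta reads was a little lower in females, but the call did not hold without 1 library. Its median was 0.359 in females (range 0.209 to 0.445) and 0.387 in males (range 0.286 to 0.458). The female maximum came from Rasgef1a female replicate 39, where Xist went against the label. Of 52 females, 37 lay below the male median. The mean log2 ratio was lower by 0.097 in females than in males (two-sided permutation of sex within line, 100000 draws, adjusted p = 0.0492 over 8 tests), and it was lower in females in 8 of 13 lines. Without the shallowest library, a female, the difference was -0.083 with an adjusted p of 0.0876 by the same test. Without the libraries that went against their sex label it was -0.106 (0.0221), and on plate 1 alone -0.106 (0.0417). In 7 alternatives, given further on, the call was lost. The other 3 ratios differed by -0.06 (Hba-a1 to Hba-a2), -0.03 (Hbb-bs to Hbb-bt) and -0.02 (Alas2 to globin) on the log2 scale, with adjusted p of 0.793, 0.793 and 0.855.

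Between the 13 lines none of the 5 genes passed the test. With limma on log2(FPKM + 0.1) and Benjamini-Hochberg adjustment, 1472 of 19483 tested genes (7.56%) differed between lines, and the adjusted p was 0.462 for Hba-a1, 0.619 for Hba-a2, 0.461 for Hbb-bs, 0.488 for Hbb-bt and 0.813 for Alas2. In the RefSeq counts edgeR's quasi-likelihood test called 1511 of 15723 genes (9.61%), and Alas2, the one gene of the 5 with enough reads there, had an adjusted p of 0.760. The highest line mean was 1.37 to 1.63 times the lowest, depending on the gene. Of the 78 pairs of lines, 0 had ranges that did not overlap, for any of the genes. The share of such pairs over all tested genes was not computed, so this is not read as particular to these genes. Mice of one line spread widely: the SD of Hbb-bs within a line ran from 1.44 FPKM in Morf4l1 to 6.34 FPKM in Gsg1l.

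The line Tbc1d8 had the highest mean of Hba-a1, Hba-a2, Hbb-bs and Alas2. Hba-a1 ran from 3.83 to 7.48 FPKM in its 8 libraries, with a median of 6.46, against 2.35 to 7.76 FPKM with a median of 4.70 in the 96 libraries of the other 12 lines. Hbb-bs ran from 17.9 to 22.3 FPKM with a median of 20.02 in Tbc1d8, against 7.14 to 28.6 FPKM with a median of 16.5 in the others. All 8 Tbc1d8 libraries lay above that median for Hbb-bs and 7 of 8 did for Hba-a1, but both ranges lay inside those of the other lines.

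By limma with Benjamini-Hochberg adjustment, 1875 of 19483 genes (9.62%) were called in Tbc1d8 against the other lines, and none of the 5 genes was among them. Hba-a1 was nearest, with a log2 difference of 0.40 ± 0.14 (SE; 1.32-fold, 95% interval 1.09 to 1.60, adjusted p = 0.0559). Hba-a2 differed by 0.36 ± 0.17 (adjusted p = 0.189), Hbb-bs by 0.30 ± 0.13 (0.135), Alas2 by 0.27 ± 0.18 (0.40) and Hbb-bt by 0.26 ± 0.17 (0.406). With edgeR's quasi-likelihood test on the recovered reads the log2 difference of Hba-a1 was 0.37 with an adjusted p of 0.0497, where 10.2% of genes were called. Over 39 alternatives this gene passed in 8, with log2 differences from 0.33 to 0.48 and adjusted p from 0.0288 to 0.605. Without each Tbc1d8 library in turn the adjusted p by limma ran from 0.0288, without female replicate 46, to 0.121, and by edgeR from 0.0249 to 0.125, with 1 of 8 fits passing by either test.

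The 5 genes went the same way within most lines. Against the other lines all 5 differences were above 0 in 4 lines (Gsg1l, Morf4l1, Rasgef1a and Tbc1d8) and all 5 below 0 in 6 lines (Arpp19, Dach1, Hrk, Pcdh20, Ppp1ca and Zswim6). The share of all genes called was 8.19% in Gsg1l, 0.328% in Kdm3b, 0.164% in Dach1, 0.0205% in Pcdh20, 0.0103% in Rgs9, 0.00513% in Arpp19, Ece2 and Rasgef1a, and 0% in Hrk, Morf4l1, Ppp1ca and Zswim6. Of these 65 tests by limma 3 had an unadjusted p under 0.05, all in Tbc1d8, and 0 passed after adjustment. Over all genes, 4383 of 19483 had an unadjusted p under 0.05 in Tbc1d8, so such values were common in that line. The genes of one library rise and fall together, as described further on, so equal signs within a line are not independent. The largest differences below 0 were -0.34 for Hbb-bt in Ppp1ca and -0.32 for Alas2 in Zswim6 on the log2 scale.

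Between the sexes none of the 5 genes passed the test either. Hba-a1 ranged from 2.35 to 7.76 FPKM in females with a median of 4.67, and from 2.51 to 7.48 FPKM in males with a median of 5.18. Its mean was 4.60 ± 1.36 FPKM in females and 5.12 ± 1.23 FPKM in males (SD, n = 52 each). The log2 difference was -0.17 ± 0.08, a fold of 0.887 with a 95% interval from 0.800 to 0.984 (limma, adjusted p = 0.163), where 1299 of 19483 genes (6.67%) were called. The ranges of the sexes overlapped almost fully.

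Hbb-bs averaged 16.8 ± 4.58 FPKM in females and 17.2 ± 3.25 FPKM in males, a fold of 0.955 with an interval from 0.869 to 1.05. Hba-a2 averaged 2.24 ± 0.815 FPKM in females and 2.36 ± 0.685 FPKM in males (fold 0.926, interval 0.817 to 1.05). Hbb-bt averaged 2.44 ± 0.906 FPKM in females and 2.46 ± 0.690 FPKM in males (fold 0.974, interval 0.858 to 1.11). Alas2, an X-linked gene, averaged 0.330 ± 0.156 FPKM in females and 0.343 ± 0.134 FPKM in males (fold 0.953, interval 0.833 to 1.09). In the RefSeq counts Alas2 differed by -0.08 ± 0.12 (edgeR's quasi-likelihood test, adjusted p = 0.735), where 1347 genes (8.57%) were called.

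The difference between the sexes was not found to depend on the line. The interaction was called for 1 of 19483 genes (0.00513%) by limma, and each of the 5 genes had an adjusted p of 0.9997. Between plates 68 genes (0.349%) were called, none of the 5 among them. Hbb-bs averaged 18.8 ± 2.86 FPKM on plate 2 (n = 8) and 16.9 ± 4.01 FPKM on plate 1 (n = 96), with a log2 difference of 0.15 ± 0.14 (limma, adjusted p = 0.699). The other 4 genes differed by 0.09 to 0.25 in the same direction, with adjusted p from 0.585 to 0.909.

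Against genes of a like level, all 5 genes varied strongly between mice. The SD of log2 CPM over all libraries was 0.36 for Hbb-bs, where the 200 genes nearest in mean level had a median SD of 0.12. It was 0.41 for Hba-a1 (0.19 in its neighbours), 0.48 for Hba-a2 (0.29), 0.49 for Hbb-bt (0.27) and 0.62 for Alas2 (0.38). Hbb-bs had a larger SD than 99.5% of its neighbours, Hba-a1 than 98.5%, and Hba-a2, Hbb-bt and Alas2 than 97.0% each. Against all 19348 tested genes, whatever their level, the percentiles were 78.6 (Hbb-bs), 82.2 (Hba-a1), 86.5 (Hba-a2), 87.2 (Hbb-bt) and 97.5 (Alas2). Counting alone would give an SD of 0.08 for Hbb-bs and 0.32 for Alas2, so the spread of Hbb-bs lies far above counting error and that of Alas2 less so.

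**Figure D3:**
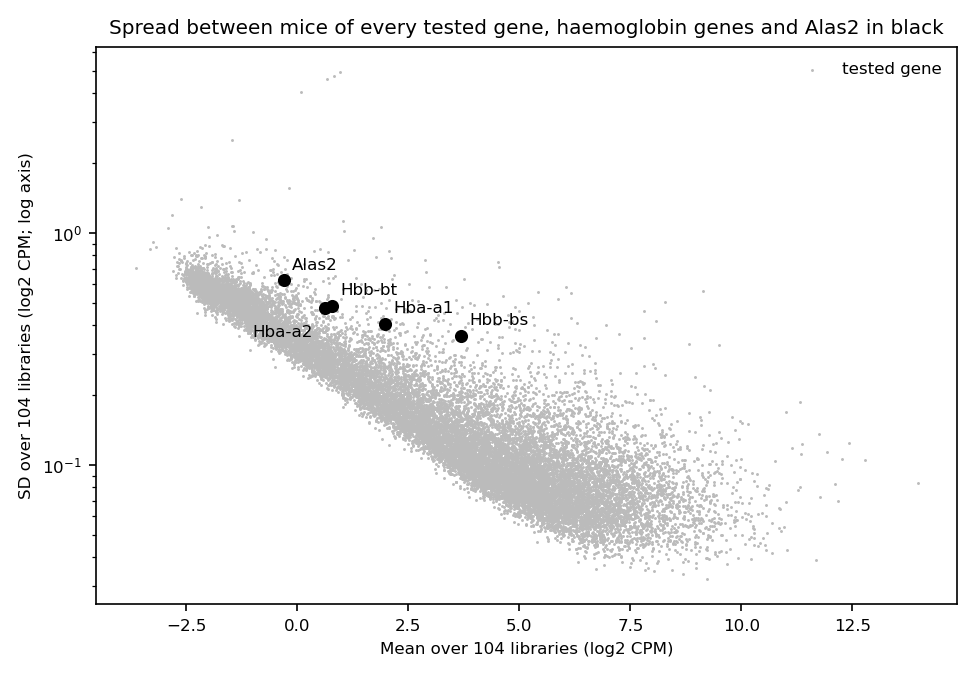
SD of log2 CPM over all libraries (y axis, log scale) against mean log2 CPM (x axis) for each of 19348 tested genes, with the 5 named genes as large black points. The 5 points lie near the upper edge of the cloud at their level, from an SD of 0.36 (Hbb-bs) to 0.62 (Alas2).

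Most of this spread lay between mice of the same line and sex. For Hbb-bs 84.2% of the sum of squares lay within line and sex, 14.9% between lines and 0.806% between the sexes. The share within line and sex was 81.1% for Hba-a1, 86.2% for Hba-a2, 85.1% for Hbb-bt and 89.9% for Alas2. The median tested gene had 84.1% within, 13.7% between lines and 0.958% between the sexes, so the globin genes did not stand out in how their spread was divided. Hba-a1 had the largest share between the sexes, 4.5%.

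The genes rose and fell together from mouse to mouse. Across all libraries log2 CPM of Hbb-bs correlated with that of Hba-a1 (Pearson's r = 0.84, Spearman's rho = 0.85), Hbb-bt (0.83 and 0.80), Hba-a2 (0.78 and 0.74) and Alas2 (0.76 and 0.75). By permutation each r has an adjusted p of 5e-05 and each rho one of 4e-05, over 20 relations. The unadjusted p of each is the least that 100000 permutations allow. Without the 2 libraries farthest from the median Hbb-bs level, Gsg1l female replicate 15 and Dach1 female replicate 7, r was 0.84, 0.82, 0.74 and 0.73. Within line and sex r was 0.85, 0.84, 0.76 and 0.75. Hba-a1, Hba-a2 and Alas2 correlated positively with Hbb-bs in 13 of 13 lines and Hbb-bt in 12 of 13, the lowest being -0.29. Reads that match both genes of a pair can be shared between them, and their part in the correlation of a pair was not tested. The weakest of the 10 pairs was Hbb-bt with Alas2 (r = 0.65).

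**Figure D4:**
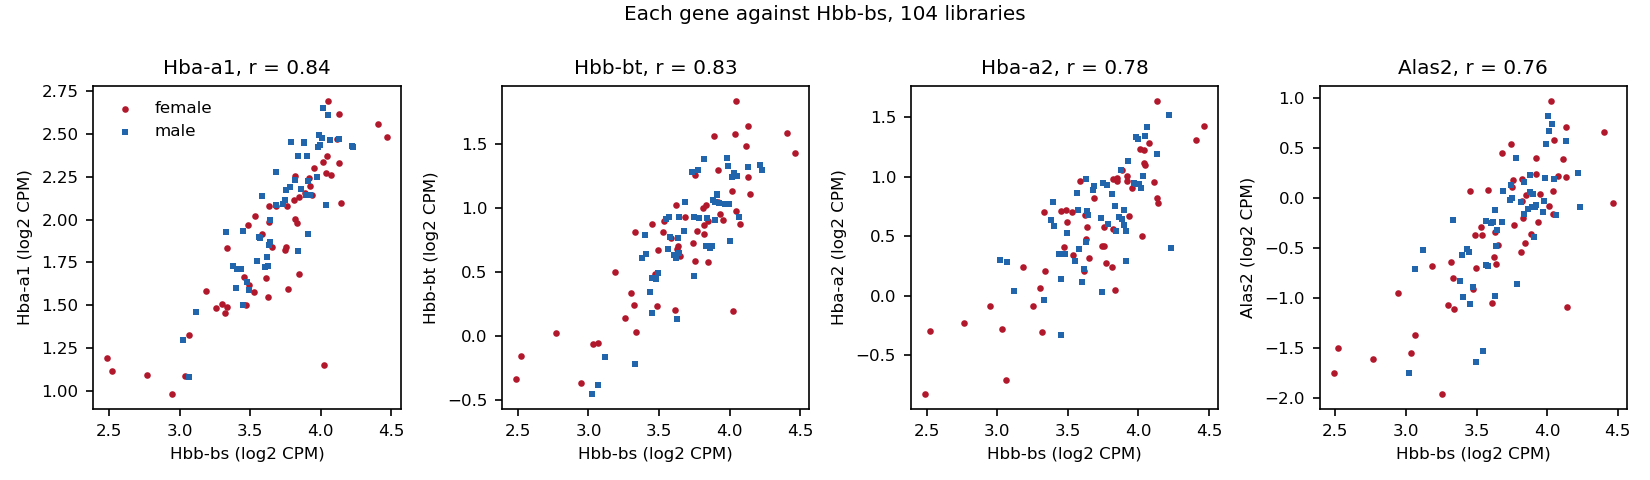
Log2 CPM of Hba-a1, Hbb-bt, Hba-a2 and Alas2 (y axes) against log2 CPM of Hbb-bs (x axes) in every library, females as circles and males as squares. Pearson's r is 0.84, 0.83, 0.78 and 0.76, and both sexes lie along the same trend.

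These 4 genes held the 4 highest places among all tested genes by rho with Hbb-bs. The next gene outside them was Rps14, a ribosomal protein gene, with a rho of 0.54, followed by Gm14586 with 0.51. The 8 after it were B230118H07Rik (0.46), Gm5069 (0.46), Use1 (0.45), Rpl31-ps8 (0.45), Cxcl14 (0.45), Rps16-ps2 (0.45), Gm5805 (0.44) and Rps24-ps3 (0.43). Cxcl14 is a chemokine, and the names ending in ps are pseudogenes of ribosomal protein genes, whose reads may be shared with their parent genes. The lowest were Rbm27 (-0.44), Gfpt1 (-0.43), Elavl1 (-0.42), Zfp141 (-0.41) and Abi2 (-0.41). Among the 19343 genes outside the 5, the 99th percentile of rho was 0.31 and 23 genes were above 0.4. Hba-a2, the lowest of the 4 at a rho of 0.74, lay above all of them.

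The other genes of haem synthesis had weak relations to Hbb-bs. All 8 enzymes from Alas1 to Fech were tested, and their median rho with Hbb-bs was 0.12, against 0.00340 over the other tested genes. The highest were Ppox (0.22), protoporphyrinogen oxidase, and Alad (0.19), and the lowest was Cpox (-0.16). The mean log2 CPM of the 8 gave r = 0.16 with Hbb-bs (permutation, adjusted p = 0.220), and r = 0.28 (adjusted p = 0.0144) without the 2 libraries farthest from the median. Alas1, the housekeeping form of the synthase, had 12.3 ± 0.509 FPKM, far above the 0.336 FPKM of Alas2, and passed the test between lines (limma, adjusted p = 0.0191), as 1 of the 8, where 7.56% of all genes were called. None of the 8 was called between the sexes, and Ppox was called in Tbc1d8 with a log2 difference of 0.13 ± 0.04 (adjusted p = 0.0468).

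Genes of the red cell membrane and of reticulocytes that are also made in cortex were split. Of the 9 tested membrane genes 2 had a rho above 0 with Hbb-bs, the highest being Gypc (0.10) and Dmtn (0.06) and the lowest Sptb (-0.28), which neurons also make. Of 19 tested genes of the reticulocyte cytosol 15 had a rho above 0, and 4 lay above the 95th percentile of all genes (0.22). The highest were Blvrb (0.31), biliverdin reductase B, and Tent5c (0.25), and the lowest was Ube2o (-0.25). Their mean log2 CPM gave r = 0.37 with Hbb-bs (permutation, adjusted p = 0.0003), and their median r = 0.06 (adjusted p = 0.801), so the relation depends on how the list is summed. The 4 tested genes of the transcription factor list had rho from -0.09 for Epor, the erythropoietin receptor, to 0.06 for Lmo2.

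Markers of other blood cells were mostly too low to be tested, and those tested had no relation to Hbb-bs that passed. Of 11 neutrophil genes 3 were tested (Lcn2, Mmp9 and Csf3r), and of 9 platelet genes 5. Of 12 lymphocyte and monocyte genes 1 was tested, Cd79a, at a mean of 0.146 FPKM. S100a8 and S100a9, abundant in neutrophils, had 0.0705 ± 0.0748 and 0.122 ± 0.130 FPKM and were not tested. The mean log2 CPM of the tested genes gave r of 0.01 for neutrophils, 0.12 for platelets and -0.15 for lymphocytes and monocytes, with adjusted p of 0.949, 0.337 and 0.220. Of the 5 tested platelet genes 3 had a rho above 0 with Hbb-bs. The highest were Gp9 (0.18) and Itga2b (0.11), and the lowest was Itgb3 (-0.07). Pf4, made by platelets, had a rho of -0.05.

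Markers of vessels and of brain cells were tested in the same way, and microglia were the one list of these whose relation to Hbb-bs passed. All 10 microglia genes had a rho above 0, and 9 lay above the 95th percentile of all genes. Cx3cr1 (0.37), the fractalkine receptor, and Trem2 (0.33) were highest and Tmem119 (0.15) lowest. Their mean log2 CPM gave r = 0.41 (permutation, adjusted p = 0.00012) and 0.38 within line and sex, and their median r = 0.28 (adjusted p = 0.0145). The summed level of the 10 genes ran from 142 to 194 FPKM over the libraries. The part of microglia in the globin levels was not tested. By the same permutation test, for endothelium r was 0.21 (adjusted p = 0.101), for mural cells 0.15 (0.220), for meninges -0.01 (0.949) and for choroid plexus 0.01 (0.949). For cortical neurons r was -0.17 (0.196), for macroglia -0.07 (0.610) and for the genes of haem breakdown and haemoglobin clearance 0.11 (0.373). Of the 5 tested genes of the haem breakdown and clearance list 3 had a rho above 0. The highest were Hpx (0.28), haemopexin, and Blvra (0.08), and the lowest was Cd163 (-0.05).

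**Figure D5:**
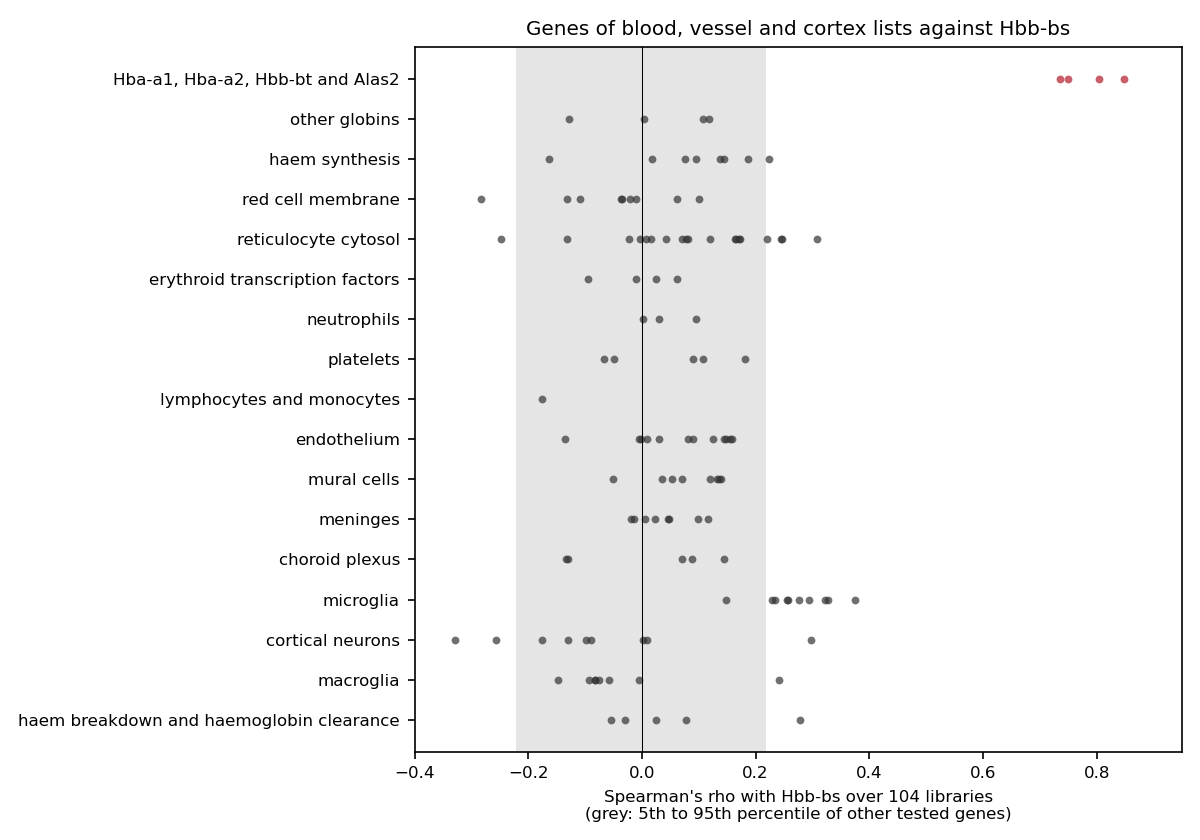
Spearman's rho with Hbb-bs over all libraries (x axis) for each tested gene of 17 lists (rows), with the 5th to 95th percentile of the other tested genes in grey (-0.22 to 0.22). Hba-a1, Hba-a2, Hbb-bt and Alas2 lie between 0.74 and 0.85, and 9 of 10 microglia genes lie to the right of the grey band.

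The globins of other cells showed little relation to the red cell chains. Ngb, neuroglobin of neurons, had 1.60 ± 0.435 FPKM and Cygb, cytoglobin of fibroblasts and some neurons, 21.8 ± 1.54 FPKM (SD over all libraries), with rho of 0.11 and 0.12 to Hbb-bs. Ngb passed the test between lines (limma, adjusted p = 0.00214) and was higher in Tbc1d8 by 0.50 ± 0.11 on the log2 scale (adjusted p = 0.000950), as 1 of 4 tested genes of the list, where 9.62% of all genes were called. Hbq1a, a theta-type alpha globin gene, had 0.589 ± 0.230 FPKM and the lowest rho of the list, -0.13.

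Between the sexes 7 of 117 tested list genes (5.98%) passed the test, near the 6.67% of all genes. Epor was lower in females by 0.11 ± 0.03 on the log2 scale (limma, adjusted p = 0.0309), Ube2l6, a ubiquitin-conjugating enzyme, by 0.10 ± 0.03 (0.0324) and Epb41, protein 4.1 of the membrane skeleton, by 0.09 ± 0.02 (0.00543). Hmox2, the constitutive haem oxygenase, was lower by 0.04 ± 0.01 (0.0220), and Rbfox3 and Slc17a7, markers of neurons, by 0.04 ± 0.01 (0.0350) and 0.05 ± 0.01 (0.000551). Abcb1a, an efflux pump of brain endothelium, was higher in females by 0.07 ± 0.02 (0.0344). In Tbc1d8 Hmox1, the inducible haem oxygenase, was lower than in the other lines by 0.30 ± 0.08 (0.00766), and Ftl1, the ferritin light chain, was higher by 0.10 ± 0.03 (0.00669). Of the reticulocyte cytosol list Bcl2l1 (0.09 ± 0.03, adjusted p = 0.0196 by limma) and Bnip3l (0.05 ± 0.02, 0.0439), both of the Bcl2 family, were higher in Tbc1d8, and Tfrc, the transferrin receptor, was lower by 0.17 ± 0.06 (0.0334). Sptb, beta spectrin, was lower in Tbc1d8 by 0.09 ± 0.02 (0.00443) and passed the test between all lines (0.0104), as did Ftl1 (0.0109). Over all lists 14 of 117 tested genes (12%) were called in Tbc1d8, against 9.62% of all genes. Of the cortical neuron list 5 of 10 genes were, with Camk2a higher by 0.10 ± 0.02 (0.00117).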

How the data were processed

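The tables hold read counts per gene and FPKM values of mouse cortex libraries, deposited by the authors for RefSeq and for Ensembl genes. Reads were aligned with STAR 2.7.3a and counted with HTSeq 0.10.0 on GRCm38 (mm10), per the submitters' processing notes, which give no role for either build name. FPKM were deposited as the authors scaled their counts to gene length and library size. The gene lengths the FPKM imply equal the GENCODE vM21 exon unions for the 5 genes.

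The Ensembl count table used here holds 19563 genes and ends inside a line, so whole reads were recovered from the Ensembl FPKM of 48795 genes. The ratio of count to FPKM was a constant of gene and library, to within 1.65e-09 over 8519 genes. Values within 0.001 reads of a whole number counted as whole, and 6 genes could not be recovered. All 13553 genes with a mean of at least 10 reads that could be compared were identical to the deposited counts. No column belonged to another series.

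The globin genes hold almost no RefSeq reads. The planned edgeR 4.0.16 quasi-likelihood test on RefSeq counts therefore covers Alas2 only, and limma 3.58.1 (trended variance) on log2(FPKM + 0.1) of genes with at least 0.1 FPKM in at least 52 libraries was added for all 5, chosen after the values were seen. Both models held line and sex, with plate in its own fit, and p-values were adjusted over all tested genes by Benjamini-Hochberg at 0.05. Spread and relations used log2 CPM with a prior of 2 reads. Ratios and relations were tested with 100000 permutations in Python 3.11.15 with scipy 1.17.1 and R 4.3.3. The scripts were tested on simulated data. Alternatives were other normalizations, filters, pseudocounts, DESeq2 1.42.0, left-out libraries, left-out lines and a replicate block. Counting intervals cover counting error only. Members and lists were chosen with earlier results of these data known. Named genes were the 5 genes, list genes that passed a test (at most 4 a list, smallest p first), the 2 highest and the lowest rho of a list, and the 10 highest and 5 lowest rho over all genes. Pf4, S100a8, S100a9 and the red cell precursor genes were named outside this rule, and some lists of other cells are given by their summed relation with few or no genes named. Some genes the rule names are not reported here.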

Additional observations from a re-analysis of the deposited data

Results flagged for a closer look

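In 7 of 117 groups of 8 libraries, 1 library lay farther from the others than Dixon's limit allows, and chance gives about 1 in 20 such groups. Hbb-bs was low in Pcdh20 female replicate 29, at 2.767 log2 CPM, where the nearest other library of the line had 3.337. Alas2 was low in Rasgef1a male replicate 40, at -1.53 log2 CPM with the nearest at -0.377, and so was its log2 ratio to the globins, at -5.913 with the nearest at -4.958. In that library both Xist and Y-linked reads went against the label.

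The log2 ratio of Hba-a1 to Hba-a2 was high in Pcdh20 female replicate 30, at 1.725 with the nearest at 1.4. The log2 ratio of Hbb-bs to Hbb-bt was high in Dach1 male replicate 6, at 3.621 with the nearest at 3.064. It was also high in Kdm3b female replicate 22, the shallowest library, at 3.749 with the nearest at 3.061. The log2 ratio of Alas2 to the globins was low in Ppp1ca female replicate 36, at -5.044 with the nearest at -4.713.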

How the results depend on the processing

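Differences of single genes, ratios other than alpha to beta between the sexes, and relations to Hbb-bs that passed were counted together. Of these, 687 alternatives kept direction and side of the threshold and 14 changed sign. A further 8 passed where the reported value did not, and 1 no longer passed. The cause was not tested. The 1 was the relation of the reticulocyte cytosol list taken by its median. The alpha to beta difference between the sexes, counted apart, no longer passed in 7 alternatives. The 8 were Hba-a1 in Tbc1d8. The number of genes called in any line was 1 in place of 0 with edgeR on recovered reads (TMM, relative log expression factors, library totals, or without the libraries against their sex label), and with limma without those libraries, without the line Gsg1l or without Zswim6 female replicate 52; leaving out single libraries gave 0 to 1.

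Of the chain ratios 0 in place of 1 differed between the sexes with 5 reads added, from FPKM, without the shallowest library and without replicate 1, 2, 3 or 4. The alpha to beta difference was then -0.0875, -0.0958 and -0.0829, and -0.117 to -0.0584 without a replicate. Ratios from RefSeq FPKM could not be made, and of the spread 0 genes of the 5 stood above the limit on log2(RefSeq FPKM + 1), where Alas2 alone could be placed.

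Signs changed between plates for Alas2 in RefSeq counts (-0.0439 to 0.306 without a replicate, -0.206 without Dach1) and FPKM (-0.0180 to 0.240, and -0.136), and for Hbb-bs without Dach1 (-0.00768). Between the sexes they changed for Hbb-bt (0.0161 on plate 1 with edgeR, -0.0980 to 0.0212 without a replicate, 0.00321 without Gsg1l), for Hbb-bs to Hbb-bt (-0.107 to 0.0410) and for Alas2 to globin (0.0170 with 5 reads added, -0.0566 to 0.0363).

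The replicate numbers did not pair the sexes: same-numbered libraries deviated with r from -0.198 to 0.217, over 0.1 in 6 of 52 pairs. With the replicate block 0 genes were called, and Hba-a1 differed by -0.17 (adjusted p = 0.172). Depth limits Alas2 most, at a median of 25 reads.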

Other observations

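Other abundant symbols were nearly without reads in the RefSeq counts as well. Snrpn, an imprinted gene of neurons, held a mean of 18394 Ensembl reads and 26.2 RefSeq reads per library. Cers1, a ceramide synthase, held 1621 and 0, Vamp7 held 933 and 0, and Spry3 held 308 and 0. Amd1 held 1358.5 and 6.52. These were chosen after their values were seen, and the cause was not tested.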
